A study of Rattus norvegicus with 6 samples.

Results

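Histone genes were taken from the count table of an RNA-seq experiment on rat fibroblast-like synoviocytes (RA-FLS), the fibroblasts of the joint lining, labelled as rheumatoid arthritis. Of the 34156 rows of the table, 22250 were listed as protein coding, and 45 of these carried a symbol of the histone families (symbols beginning Hist1h to Hist4h, H1f or H1-, H2a or H2b, H3- or H3c or H3f, or H4c). The TNF-α group (n = 3 libraries) received 10 ng/mL TNF-α, and the TNF-α+EMO group (n = 3) received 10 ng/mL TNF-α together with 80 μmol/L emodin (EMO), an anthraquinone of rhubarb. Both groups therefore carried TNF-α, and no library without TNF-α was analysed here. The cells were wild type, came from a commercial supplier and were used at passage 4. The sample labels give day 5 as the time, whereas the culture protocol names 24 h, and which applied to these libraries is not settled. The 3 libraries of a group are described as biological replicates, but the labels do not say that they came from separate cultures, so the p-values measure the spread between these libraries, which may be technical.

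Histones are the proteins around which DNA is wound. H2A, H2B, H3 and H4 form the core of the nucleosome, and H1 binds the linker DNA between nucleosomes. Most histone genes lie in clusters, are transcribed in S phase while DNA is copied, and give mRNAs that end in a stem-loop instead of a poly(A) tail. Variant histones such as H2A.Z, H2A.X and H3.3 are encoded by genes outside the clusters, are made through the cell cycle and give polyadenylated mRNAs. The libraries were poly(A) selected, so clustered histone mRNAs are largely removed before sequencing, and some clustered genes are known to give polyadenylated transcripts as well. The counts of clustered genes are thus counts of what poly(A) selection left, not of the histone mRNA in the cell.

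By symbol, 28 of the 45 genes were grouped as clustered and 17 as variant. The symbols placed H1f1, H1f2, H1f4, H1f5, H1f6 and H2bu1 with the variants, although the table describes the H1 genes among them as cluster members on chromosome 17, so they are named apart wherever they matter. The symbols name 8 genes as H1, 17 as H2A, 10 as H2B, 6 as H3 and 4 as H4, which was not checked against protein sequence. The rows listed as Hist1h2ail1 have the length of the H3 gene H3c1 (411 bases). Hist1h2ao has that of the H4 gene Hist1h4m (312 bases), so the family of these rows is uncertain. On chromosome 17, 22 members lay between positions 43422454 and 44841382 (Rnor_6.0, coordinates as deposited), and a smaller group of 6 clustered genes lay on chromosome 2 between 198359754 and 198389201. Only 15 members (33.3%) had at least 10 counts in at least 3 libraries and were tested, 6 clustered and 9 variant by symbol, and each of the 15 reached 10 counts in at least 1 library of both groups. Of the other 30, 7 had 0 counts in every library, and the highest count of any of the 30 was 20.

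The promoters of 28 members, 9 of them tested, could be matched to RefSeq by symbol and chromosome (assembly GRCr8, not the build of the counts). On chromosome 17 the part of the cluster also had to match, which was not asked on chromosome 2. Hist2h2aa2 and Hist2h3c2 lie there in another order and on other strands than in the deposited table. Their windows may therefore belong to other copies. The 250 bases before each start site were searched on both strands for short motifs known from histone promoters, and 3 are shown because they stand for a clustered gene that rose with EMO (Hist2h2be), a highly counted linker histone that fell (H1f2) and a variant that fell (H2ax). Capitals mark matches, on either strand, to the CCAAT box, to the TATA box written as TATAAA, to the octamer of H2B promoters (ATTTGCAT), to E2F sites in the forms TTTGGCGC and also TTTCGCGC, and to the H1 box written as AAACACA, and such matches may overlap.
Hist2h2be, chr2:186469202-186469451, plus strand: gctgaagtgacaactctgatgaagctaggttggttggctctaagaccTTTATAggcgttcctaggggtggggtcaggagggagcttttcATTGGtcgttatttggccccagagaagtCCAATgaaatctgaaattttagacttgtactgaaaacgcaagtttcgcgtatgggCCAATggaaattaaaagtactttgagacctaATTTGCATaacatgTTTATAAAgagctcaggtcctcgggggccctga
H1f2, chr17:41820454-41820703, minus strand: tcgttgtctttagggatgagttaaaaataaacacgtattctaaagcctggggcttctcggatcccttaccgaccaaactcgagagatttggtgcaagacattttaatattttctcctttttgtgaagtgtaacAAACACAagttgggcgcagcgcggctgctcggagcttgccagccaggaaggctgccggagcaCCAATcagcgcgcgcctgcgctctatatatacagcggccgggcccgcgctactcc
H2ax, chr8:53568468-53568717, plus strand: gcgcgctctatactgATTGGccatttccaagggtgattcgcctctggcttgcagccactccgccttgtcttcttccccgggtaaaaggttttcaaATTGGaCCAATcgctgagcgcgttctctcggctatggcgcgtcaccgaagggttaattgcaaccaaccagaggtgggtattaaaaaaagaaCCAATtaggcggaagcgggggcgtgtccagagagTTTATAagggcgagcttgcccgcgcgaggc
CCAAT was found in 15 of the 15 clustered and 11 of the 13 variant promoters, against 34% of all 33469 promoters of that length. The 13 variant promoters include those of H1f1, H1f2, H1f4, H1f5, H1f6 and H2bu1. TATAAA was found in 11 clustered (73.3%) and 4 variant promoters (30.8%), against 12.9% of all promoters. These 4 were H1f1, H1f4 and H1f5 of the chromosome 17 cluster, and H2ax. The octamer ATTTGCAT stood in 9 clustered promoters (60%) and 1 variant promoter, that of H2bu1, against 1.56% of all. AAACACA stood in 3 clustered and 5 variant promoters against 6.08% of all, and TTTCGCGC in 2 clustered promoters against 0.248%. The 5 variant promoters with AAACACA were those of H1f2, H1f4, H1f5 and H1f6 of the chromosome 17 cluster, and of H1f8. TTTGGCGC stood in no promoter of a member, and in 0.412% of all promoters. In 2 pairs of genes read in opposite directions, H2ac1 with H2bc1 and H2ac20 with Hist2h2be, the windows overlapped, by 239 and 225 bases, so the matches are not independent. The window of H1f10 held no match to any of these motifs. The matches describe the letters of these windows and do not show binding.

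Most histone genes with enough counts were lower with EMO. Of the 15 tested, 10 were lower and 2 higher in edgeR's quasi-likelihood test (p adjusted by Benjamini-Hochberg over 13614 genes, threshold 0.05), and 3 did not pass. SE below is the standard error of the log2 fold change. Most genes of these cells passed this test, as 80.9% of all genes tested were called, 41.4% lower and 39.4% higher. DESeq2 called 79.5% of the genes it tested and 11 of the 15 histone genes, leaving out Hist1h2af. In 12 of the 15, the libraries of the groups did not overlap in normalized counts, against 82.9% of all genes tested. All but 1 of the 9 tested genes grouped as variant were lower, none was higher, and their median log2 fold change was -1.05, against -0.01 over all genes tested. The 6 tested clustered genes were divided, with 2 higher, 2 lower and 2 that did not pass, and a median of 0.33. That median was 0.05 without TNF-α replicate 2 and 0.57 without TNF-α replicate 3, and it turned to -0.42 with no filter on low counts and to -0.45 with the cluster H1 genes and H2bu1 counted as clustered, a grouping added after the data were seen. When a log2 change of more than 1 in size was also asked for, 5 variant genes were lower, and the 4 clustered calls were the same, against 27.8% of all genes lower and 19.5% higher. In these bulk libraries, fewer cells that express a gene and less RNA per cell cannot be told apart, and all values are relative to the total of counts.

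**Figure D1:**
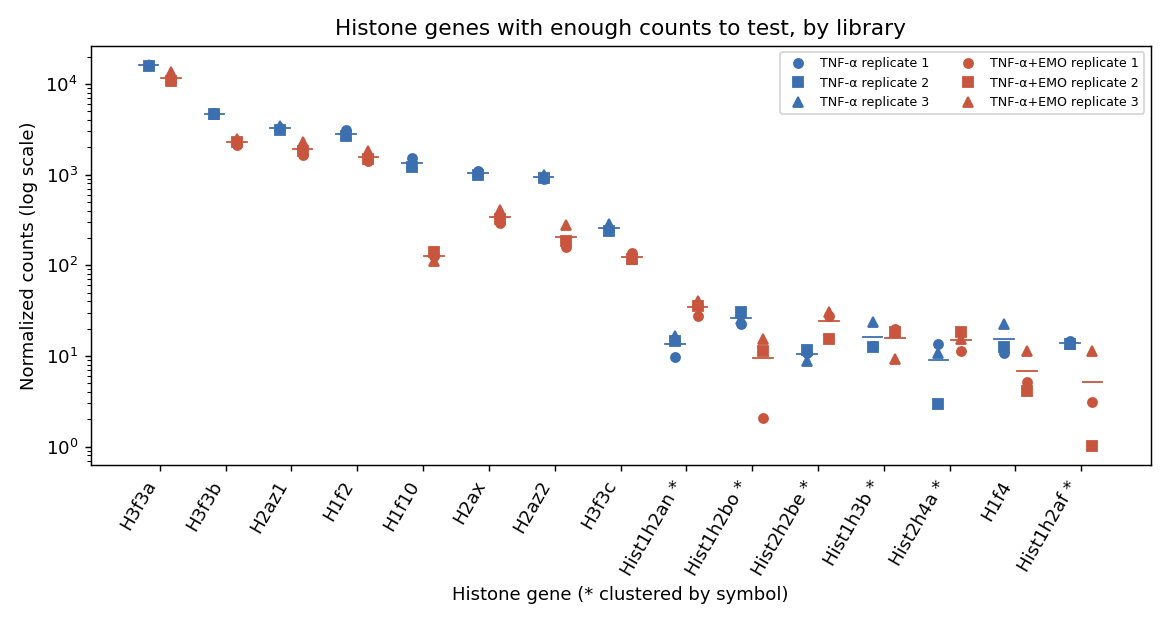
Normalized counts (log scale, counts scaled by TMM effective library size) of the 15 tested histone genes in the 3 TNF-α (blue) and 3 TNF-α+EMO (red) libraries, ordered by mean, with short lines at group means and asterisks on genes clustered by symbol. The variants other than H1f4 lie above the clustered genes, which run from 1.02 to 40.7 normalized counts, and the groups overlap in Hist1h3b, Hist2h4a and H1f4.

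The H3.3 genes carried most of the histone counts. H3.3 replaces H3 outside S phase and is placed by the HIRA and DAXX chaperones. The row listed as H3f3a (chromosome 10, 104573664 to 104575890, minus strand) had 16437, 16314 and 16568 counts with TNF-α and 10484, 10482 and 13340 with EMO. The lowest TNF-α library stood above the highest TNF-α+EMO library, and TNF-α+EMO replicate 3 was the highest of its group. H3f3a went from a mean of 16057 ± 129 with TNF-α to 11709 ± 1628 with EMO in normalized counts (SD, n = 3; log2 fold change -0.46, SE 0.09, adjusted p = 5.6e-04, edgeR), the smallest drop among the 10 genes that were lower.

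The row listed as H3f3b (chromosome 13, 99091763 to 99101208, minus strand) had 4816, 4713 and 4809 counts with TNF-α and 2050, 2229 and 2409 with EMO. Its groups did not overlap, and it fell by 1.03 in log2 units (SE 0.07, adjusted p = 7.3e-08, edgeR). H3f3c (chromosome 7, 94777702 to 94778696) had 250, 242 and 291 counts with TNF-α and 131, 114 and 115 with EMO (log2 fold change -1.05, SE 0.14, adjusted p = 3.2e-05, edgeR). The H3.3 genes encode nearly the same protein, and reads of one can align to another, so the split between the 3 rows is uncertain. RefSeq (GRCr8) places the symbol H3f3a on chromosome 13 and H3f3b on chromosome 10, the reverse of the deposited table, so each row is identified here by its position.

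H2A.Z, which is exchanged for H2A in nucleosomes beside start sites, was lower with EMO in both of its genes. H2az1 (chromosome 2, 243105674 to 243106956) had 3341, 3144 and 3526 counts with TNF-α and 1575, 1767 and 2229 with EMO. It fell by 0.78 in log2 units (SE 0.11, adjusted p = 1.1e-04, edgeR), with no overlap between the groups. H2az1 overlaps Dnajb14 on the same strand, a gene with 112 to 299 counts, which is small beside the counts of H2az1. H2az2 (chromosome 14, 86687782 to 86706626) fell further, with normalized means of 929 ± 51.1 and 207 ± 62.6 (SD, n = 3). Its counts were 912, 928 and 1014 with TNF-α and 155, 179 and 273 with EMO (log2 fold change -2.16, SE 0.18, adjusted p = 2.9e-06, edgeR). Whether H2az1 and H2az2 differ in their change was not tested.

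H2ax encodes H2A.X, the variant that is phosphorylated at DNA breaks, and its mRNA is known to exist in both the stem-loop and the polyadenylated form. It lies on chromosome 8 from 48665652 to 48666981, and its window upstream holds 4 CCAAT matches and 1 TATAAA match. H2ax had 1113, 1021 and 1085 counts with TNF-α and 281, 318 and 395 with EMO, so that each TNF-α library held more than any TNF-α+EMO library. The log2 fold change was -1.63 (SE 0.11, adjusted p = 1.7e-07, edgeR). Of the remaining variant members outside the clusters, H2aj, which encodes H2A.J, had 1, 0 and 0 counts with TNF-α and 0, 2 and 2 with EMO, H2afb3 had 0 counts throughout, and neither was tested. H2bu1, an H2B gene on chromosome 10, had 0, 1 and 0 counts with TNF-α and 3, 0 and 0 with EMO.

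Linker histones gave the largest drop. H1f10 (chromosome 4, 119889371 to 119889949) encodes H1.10, a replication-independent H1. It had 1533, 1235 and 1346 counts with TNF-α and 121, 137 and 109 with EMO. It was thus 10.7-fold lower with EMO, with a log2 fold change of -3.42 (SE 0.12, adjusted p = 5.6e-10, edgeR). Here TNF-α+EMO replicate 3 was the lowest of its group, unlike in most other members. H1f2 (chromosome 17, 43639749 to 43640387), the linker histone H1.2 of the large cluster, had far more counts than any other cluster gene, with 3158, 2747 and 2785 with TNF-α and 1373, 1464 and 1783 with EMO. It fell by 0.84 in log2 units (SE 0.10, adjusted p = 1.3e-05, edgeR), and its groups did not overlap.

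The other H1 genes of the chromosome 17 cluster had few counts. H1f4, which encodes H1.4, had 11, 13 and 23 counts with TNF-α and 5, 4 and 11 with EMO, and the groups touched at 11 raw counts and overlapped after scaling (log2 fold change -1.15, SE 0.50, adjusted p = 0.053, edgeR). Without TNF-α+EMO replicate 3 its adjusted p was 0.011, without TNF-α replicate 1 it was 0.048, and with scaling by library totals 0.036. Under the other alternatives H1f4 did not pass (adjusted p from 0.052 to 0.23), with 0.12 in DESeq2, 0.23 without TNF-α replicate 3, and 0.12 and 0.16 without TNF-α+EMO replicates 1 and 2. H1f5, which encodes H1.5, had 9, 15 and 14 counts with TNF-α and 1, 0 and 1 with EMO. It was below the filter, and its mean with TNF-α stood 4.02-fold above a floor of 3 counts per library. That figure does not allow for the spread of the TNF-α libraries. H1f6, the testis linker histone, had 0, 7 and 2 counts with TNF-α and 1, 0 and 2 with EMO, and H1f1 had 0 counts in every library. The oocyte linker histone H1f8 had 1, 0 and 0 counts with TNF-α and 1, 4 and 7 with EMO, and H1f7 had 0 counts.

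Clustered core histones moved in both directions at low counts. Hist1h2an (chromosome 17, 44520537 to 44520929), an H2A gene, had 10, 15 and 17 counts with TNF-α and 27, 35 and 40 with EMO. The groups did not overlap, and the log2 fold change was 1.34 (SE 0.32, adjusted p = 0.0028, edgeR). Another row of that symbol, listed as a pseudogene (chromosome 17, 43779174 to 43779775), went the other way. It had 11, 3 and 5 counts with TNF-α and 1, 0 and 2 with EMO, and was not tested. RefSeq (GRCr8) places the symbol Hist1h2an in another part of the cluster, so the row is identified here by its position. Hist2h2be (chromosome 2, 198360998 to 198361378), an H2B gene whose promoter is printed above, had 11, 12 and 9 counts with TNF-α and 27, 15 and 30 with EMO. It rose by 1.23 in log2 units (SE 0.38, adjusted p = 0.011, edgeR), again with no overlap.

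Hist1h2bo, an H2B gene (chromosome 17, 44756555 to 44793927), fell from 23, 31 and 26 counts to 2, 11 and 15 (log2 fold change -1.44, SE 0.50, adjusted p = 0.021, edgeR). Its listed span covers 5 other rows, among them H1f5, and its adjusted p was 0.065 without TNF-α replicate 2. Hist1h2af, an H2A gene (chromosome 17, 43627237 to 43627629), had 15, 14 and 14 counts with TNF-α and 3, 1 and 11 with EMO, with an adjusted p of 0.049 (log2 fold change -1.43, SE 0.61, edgeR). That call was lost under 7 of 11 alternatives, with an adjusted p of 0.09 in DESeq2, 0.054 with the replicate number as a block and 0.091 to 0.14 without any single library other than TNF-α+EMO replicate 3. The log2 fold change of Hist1h2af was -2.70 without TNF-α+EMO replicate 3 and -0.96 without TNF-α+EMO replicate 2. Hist1h3b, an H3 gene, and Hist2h4a, an H4 gene, overlapped between the groups, with log2 fold changes of -0.05 (SE 0.42) and 0.71 (SE 0.50). These 2 genes are outside the rule that chose the named genes and are given so that all 6 are accounted for. Clustered genes are nearly identical in sequence, so reads may be lost or shared between them, and the value of any 1 gene is uncertain. Of the 22 clustered genes that were not tested, 4 had 0 counts throughout (H2ac1, Hist1h2ao, Hist1h4b and Hist2h4). The H4 gene Hist1h4m had 1, 3 and 4 counts with TNF-α and 0 in each library with EMO, and the H2B gene H2bc9 had 15, 8 and 8 and then 8, 9 and 6.

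**Figure D2:**
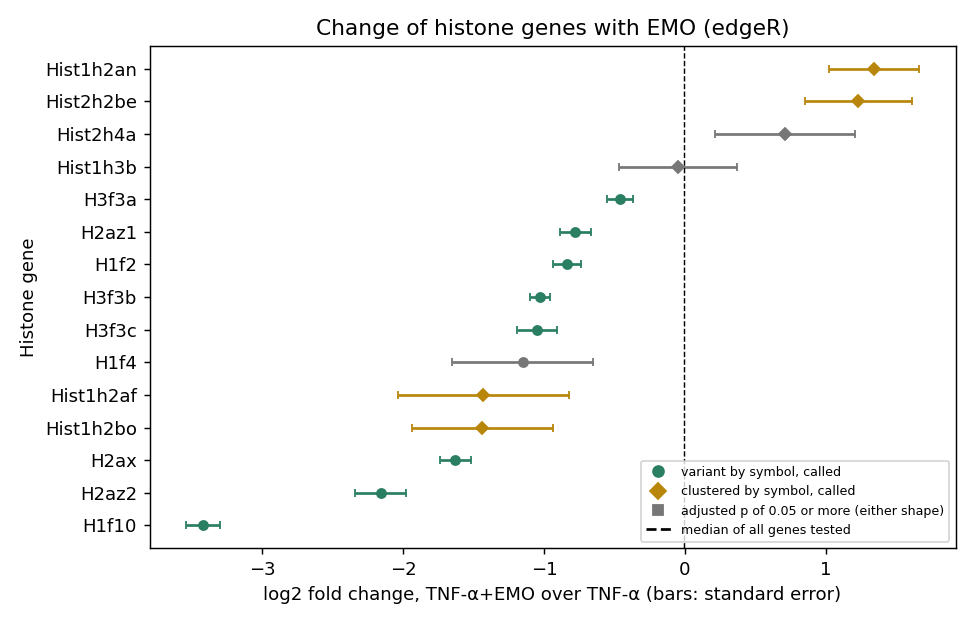
Log2 fold change of TNF-α+EMO over TNF-α for the 15 tested histone genes (edgeR), with bars of 1 SE, circles for genes that are variant by symbol, diamonds for clustered ones, grey for an adjusted p of 0.05 or more, and a dashed line at the median of all genes tested. H1f10 lies lowest at -3.42 and Hist1h2an highest at 1.34, and the bars of the clustered genes and of H1f4 are wider than those of the 8 called variants.

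Sums over whole sets, which do not depend on the filter, were compared without a test. The 28 clustered genes summed to 142, 118 and 147 counts with TNF-α and 116, 136 and 184 with EMO, or 7.71 ± 0.886 and 8.65 ± 2.03 CPM (counts scaled to the effective library size; SD, n = 3). The groups overlapped, the fold with EMO was 1.12, and it was 0.977 without TNF-α+EMO replicate 3. The 17 variant genes summed to 31582, 30380 and 31463 counts with TNF-α and 16181, 16700 and 20676 with EMO, a fold of 0.601 with no overlap. H3f3a made up most of that sum. With H1f1, H1f2, H1f4, H1f5, H1f6 and H2bu1 counted as clustered, a grouping chosen after the data were seen, the clustered fold was 0.580 and the variant fold 0.606, since H1f2 then outweighs all other cluster genes.

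The clustered members were also summed by chromosome, a split made after the data were seen. The 6 chromosome 2 genes summed to 16, 15 and 16 counts with TNF-α and 41, 32 and 69 with EMO, a 3.17-fold higher sum with no overlap, of which Hist2h2be gave 11, 12 and 9 and then 27, 15 and 30. In the same cluster, Hist2h2aa2 had 4, 0 and 5 counts with TNF-α and 5, 8 and 20 with EMO, Hist2h2aa3 had 1, 1 and 2 and then 6, 7 and 13, and Hist2h3c2 had 0 in each TNF-α library and 2, 2 and 1 with EMO. The other two H2A genes there were H2ac20, with 0, 2 and 0 and then 0, 0 and 1 counts, and H2ac21, with 0 in each TNF-α library and 1, 0 and 4 with EMO. The 17 core genes of the chromosome 17 cluster summed to 109, 95 and 117 counts with TNF-α and 64, 83 and 100 with EMO, which overlapped (fold 0.806). The 5 H1 genes of that cluster summed to 3178, 2782 and 2824 with TNF-α and 1380, 1468 and 1797 with EMO, a fold of 0.554 with no overlap. The chromosome 17 sum depends on which rows count as its genes. The same span holds 19 further rows described as core histones or their pseudogenes that the symbols did not select, 9 of them described as H4. With these 19 rows added, the chromosome 17 core sum was 458, 449 and 443 counts with TNF-α and 657, 640 and 785 with EMO, a fold of 1.62 with no overlap, so its direction turned. The turn came from the 9 rows described as H4, which summed to 285, 287 and 230 and then 568, 534 and 636 (fold 2.27). Of these counts, the LOC100912564 row starting at 44522140 gave 213, 234 and 171 and then 394, 352 and 403. With only those 9 rows added the fold was 1.85, so the other added rows lowered it. Whether the clusters differ was not tested.

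**Figure D3:**
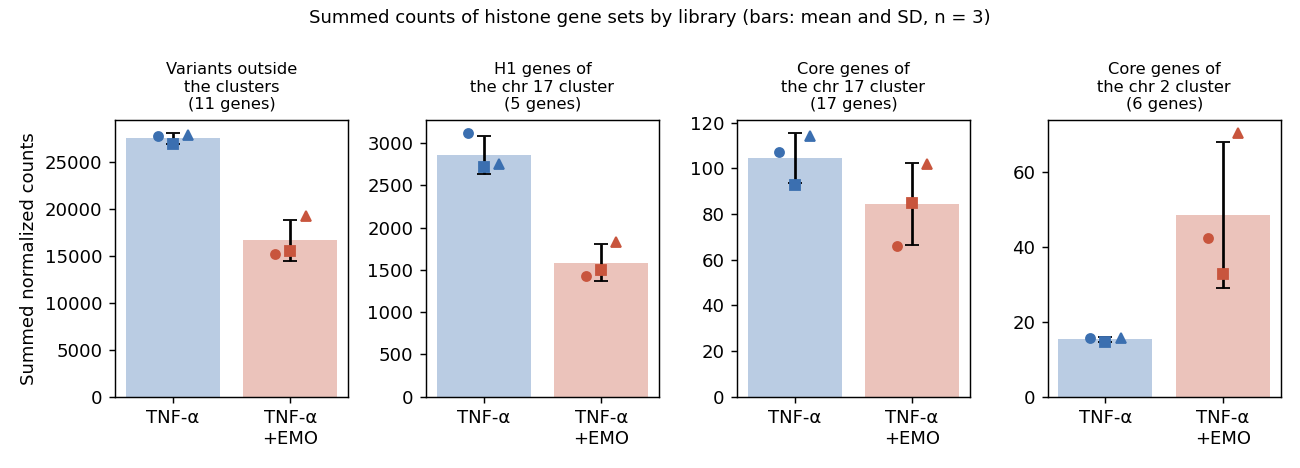
Summed normalized counts of 4 sets of histone genes in each library (points), with bars at the group mean and error bars of 1 SD (n = 3), each panel with its own axis from 0. The 11 variants outside the clusters and the 5 cluster H1 genes are lower with EMO, the 17 core members of the chromosome 17 cluster overlap (fold 0.806, and 1.62 with no overlap once 19 further core histone rows of that span are added), and the 6 genes of the chromosome 2 cluster are higher. With only the 9 of those rows described as H4 added, the chromosome 17 fold is 1.85.

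Because clustered histone mRNAs lack a tail, other RNAs without one were examined beside them. The 4074 rows listed as snRNA, snoRNA, scaRNA, ribozyme, rRNA, misc_RNA or Mt_rRNA summed to 404 to 433 CPM with TNF-α and 2006 to 2085 with EMO. Without the mitochondrial rRNA rows, the remaining 4072 summed to 193 to 200 with TNF-α and 179 to 194 with EMO. Of the 89 of these that were tested, 16 were higher and 20 lower, against 39.4% and 41.4% of all genes tested. The part of poly(A) selection in the histone values was not tested.

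Among the TNF-α+EMO libraries, replicate 3 held the highest normalized count in 11 of the 15 tested histone genes, against 37.7% of all genes tested. This was so for 8 of the 10 genes that were lower with EMO, H1f10 and H3f3c being the others. Without that library, the summed fold of the variant genes was 0.555 instead of 0.601, and the direction of the 12 called genes was the same.

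Levels between genes were compared per kilobase of listed gene length, in CPM. With TNF-α, the row listed as H3f3b stood at 661, H3f3a at 564, H2az1 at 494, H1f2 at 258, H1f10 at 135, H2ax at 45.8, H2az2 at 28.5 and H3f3c at 14.9, and the 6 tested clustered genes between 1.46 and 2.30. With EMO, H3f3a was first at 412, then H3f3b at 323, H2az1 at 288 and H1f2 at 144, while H2ax at 14.8 and H1f10 at 12.6 came close together. The listed lengths of H3f3b (411), H2az1 (384), H1f2 (639) and H1f10 (579) are multiples of 3, as of coding lengths. Those of H3f3a (1655), H2az2 (1896), H2ax (1330) and H3f3c (995) are longer, so this order is approximate. H2ax and H1f10 came close with EMO only per kilobase, as H2ax had more counts (281, 318 and 395 against 121, 137 and 109).

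The table holds 32 further rows described as histones or histone-like that the symbols did not select, among them Cenpa and pseudogenes. Of 13 with enough counts, 5 were higher and 6 lower, against 39.4% and 41.4% of all genes tested. Among the lower rows, Cenpa, H4f3, LOC102549173 and LOC102549061 reached 10 counts only in the TNF-α group. Among the higher rows, LOC100912489, described as H4-like, did so only in the TNF-α+EMO group. These rows thus passed the filter through the group where they are high. Of the 12 rows described as histone H4 or H4-like, 5 were tested, and 4 of these were higher with EMO and none lower, against the same 39.4% and 41.4%. The most counted of them (LOC100912564 at chromosome 17, 44522140 to 44526583) had 213, 234 and 171 counts with TNF-α and 394, 352 and 403 with EMO (log2 fold change 0.96, SE 0.13, adjusted p = 4.3e-05, edgeR). H4 genes encode the same protein from near-identical copies, so counts of single copies are uncertain. The LOC102548682 rows in this set span as many bases as the H3 gene H3c1 (411), not as the H4 gene Hist1h4m (312). Their description as H4 is therefore in doubt, also for the tested rows starting at 43791657 (higher) and 43626128 (not called). The gene described as the linker histone H1.3, listed as H4f3, had 28, 30 and 20 counts with TNF-α and 1, 1 and 2 with EMO. Its mean with TNF-α stood 8.26-fold above a floor of 3 counts per library, without allowing for the spread of the TNF-α libraries. Macroh2a1, which encodes the macroH2A.1 variant of silent chromatin, rose slightly, with 2303, 2332 and 2394 counts with TNF-α and 2376, 2514 and 2958 with EMO (log2 fold change 0.23, SE 0.08, adjusted p = 0.020, edgeR), whereas Macroh2a2 fell by 1.70 (SE 0.32). These rows were chosen after their values were seen.

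Of the genes that make and process histone mRNA, 33 were tested, and 16 were lower, 9 higher and 8 did not pass, against 41.4% lower, 39.4% higher and 80.9% called over all genes tested. Their median log2 fold change was -0.26, against -0.01 over all genes. Slbp, whose protein binds the stem-loop, had 1800, 1864 and 1780 counts with TNF-α and 967, 938 and 786 with EMO (log2 fold change -0.95, SE 0.09, adjusted p = 1.3e-06, edgeR). Npat, the transcriptional coactivator of clustered histone genes, fell by 0.47 (SE 0.12), and Casp8ap2 (FLASH), which acts in processing of the 3' end, by 0.84 (SE 0.09). Lsm11, a subunit of the U7 particle that cuts these mRNAs, fell by 1.81 (SE 0.17), whereas Lsm10, of the same particle, rose by 1.33 (SE 0.09). Hinfp, a transcription factor of H4 genes, rose by 1.27 (SE 0.08), and Coil, the coilin of Cajal bodies, by 1.37 (SE 0.14). Mif4gd and Tut4 fell by 1.18 (SE 0.09) and 1.02 (SE 0.12). Lsm11, Mif4gd and Tut4 were the 3 largest drops, and Coil, Lsm10 and Hinfp the 3 largest increases, among called genes with a mean of at least 100 normalized counts.

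Of the list of histone chaperones, which carry histones to and from DNA, 45 rows were tested, and 29 were lower, 12 higher and 4 did not pass. The list also holds Cenpa, itself a histone, and counts separate rows of Anp32a (both lower) and of Set (both higher). These counts stand against 41.4% lower and 39.4% higher over all genes tested. Chaperones had a median of -0.49 (log2 fold change). Cenpa, the centromeric H3 variant, had 282, 259 and 315 counts with TNF-α and 7, 6 and 6 with EMO (log2 fold change -5.40, SE 0.20, adjusted p = 1.0e-09, edgeR), and its chaperone Hjurp fell by 5.91 (SE 0.16). Asf1b, the H3 and H4 chaperone of dividing cells, had 823, 830 and 824 counts with TNF-α and 28, 30 and 45 with EMO, and it fell by 4.51 (SE 0.14). Spty2d1, a H3 and H4 chaperone of transcribed genes, rose by 2.23 (SE 0.08), Npm1 by 1.56 (SE 0.07) and Ubn1, a partner of HIRA, by 1.44 (SE 0.06).

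S phase genes were lower almost throughout. Of 44 tested, 42 were lower, 1 higher and 1 did not pass, against 41.4% lower and 39.4% higher over all genes tested. The median log2 fold change was -2.13, beside -1.05 for the tested variant histones. Cdc6, which loads the replicative helicase, had 937, 937 and 941 counts with TNF-α and 3, 7 and 2 with EMO, and Top2a, topoisomerase II of dividing cells, had 8077, 8767 and 8519 with TNF-α and 20, 18 and 8 with EMO. Cdc6 reached 10 counts only with TNF-α, so it passed the filter through the group where it is high. Mki67, the proliferation marker Ki-67, fell by 6.44 (SE 0.08). Rfc4, a subunit of the clamp loader, was the exception that rose, by 0.22 (SE 0.08, adjusted p = 0.021, edgeR). The 3 lists were read as counts and medians, and the difference between them and the histones was not tested.

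**Figure D4:**
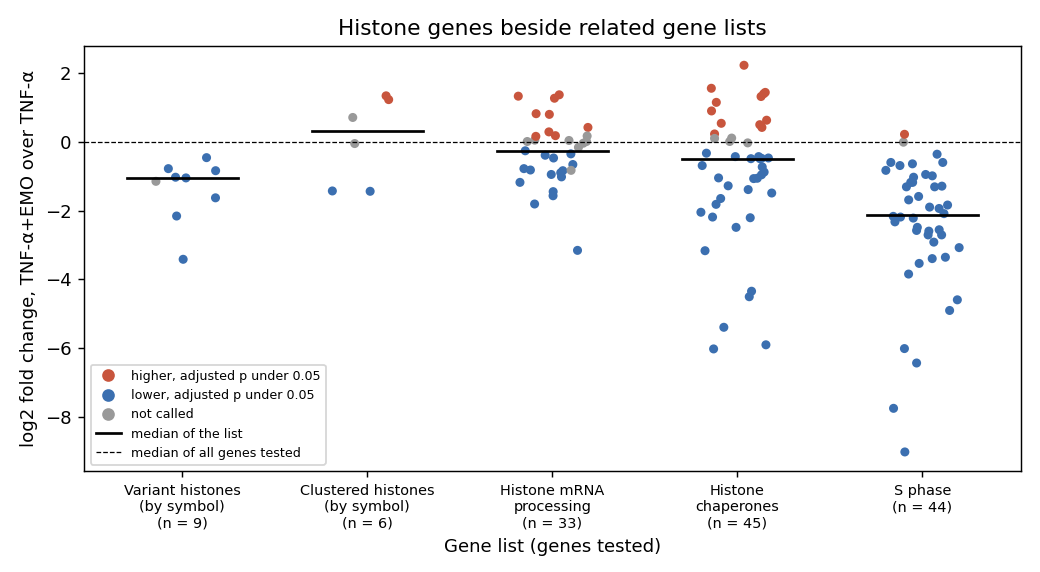
Log2 fold change of TNF-α+EMO over TNF-α for each tested gene of 5 lists (points, red for higher, blue for lower and grey for not called, spread sideways for sight), with a line at each median and a dashed line at the median of all genes. The medians are -1.05 for variant and 0.33 for clustered histones by symbol (-0.42 with no filter and -0.45 under the other grouping), -0.26 for histone mRNA processing, -0.49 for chaperones and -2.13 for S phase genes.

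The libraries held 16813322 to 17794455 counts. The labelled cell type was checked against 14 fibroblast and synoviocyte markers, of which 13 were in the table and 10 were tested. Of these 10, 8 were lower and 2 higher, against 41.4% lower and 39.4% higher over all genes tested. Fap and Lum reached 10 counts only with TNF-α, and Dcn only with EMO, so they passed the filter through the group where they are high. The summed level of the fibroblast and synoviocyte markers was 12097 to 13298 CPM with TNF-α and 2100 to 2254 with EMO. Thy1 and Prg4 had at most 7 counts in any library and Pdpn at most 1, while Col1a1, Pdgfra and Vim were high with TNF-α. The leukocyte marker Ptprc had at most 1 count, and the 8 leukocyte and macrophage markers summed to 69.9 to 75.9 CPM with TNF-α and 42.7 to 46.7 with EMO. That sum came almost wholly from Cd14 and Cd68, which went in opposite directions. Cd14 fell from 1163, 1055 and 1139 counts to 451, 508 and 536, and Cd68 rose from 155, 172 and 142 to 259, 239 and 253. Epithelial markers summed to 579 to 629 and 114 to 134, almost wholly from Krt8, with Epcam at 0. Mural and muscle markers summed to 49.2 to 53.9 and 3.30 to 4.03, and endothelial markers to at most 3.71. The part of a changed cell composition in the histone values was not tested.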

How the data were processed

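RNA of 6 libraries was sequenced as poly(A)-selected paired-end libraries by the authors' provider, checked with FastQC, trimmed with Trimmomatic and aligned with HISAT2 to Rnor_6.0 (per the submitters' processing notes and the study's methods). The authors deposited raw counts per gene; the counting program, strand setting and handling of multiply aligned reads are not given in the sources used here. The authors also deposited FPKM values, group means as scaled signal, log2 fold changes, p-values and adjusted p-values of their own comparison, none of which was used.

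A gene entered the fit with 10 or more counts in 3 or more libraries (13614 genes). Scaling was by TMM, and the robust quasi-likelihood fit was that of edgeR 4.0.16 (R 4.3.3). A gene was called at an adjusted p under 0.05. The SE is the size of the log2 fold change divided by the square root of F. Normalized counts are scaled to the mean effective library size. With 3 libraries against 3, an exact permutation test cannot go below 0.1 for a single gene, and edgeR borrows the spread of other genes. The floor of 3 counts per library covers counting error only. Named were each tested variant, clustered genes with a mean of at least 100 counts or among the 5 largest changes each way, and the 3 largest changes each way in each list with a mean of at least 100, with Slbp, Npat, Casp8ap2 and Cenpa. The members and lists were chosen with earlier results of these data known. DESeq2 1.42.0, other scalings and filters, a replicate block and leaving out each library were alternatives. The fits were tested on simulated data.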

Additional observations from a re-analysis of the deposited data

How the results depend on the processing

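The calls of the 8 lower variant genes and of Hist1h2an and Hist2h2be stayed on their side under the alternatives that tested them, apart from the added demand on the size of the fold. The clustered genes that were higher numbered 4 with no filter on low counts and 0 with a mean of at least 50 counts, where no clustered gene was left to test and no median could be given. The lower clustered genes numbered 1 with DESeq2, 0 with a mean of at least 50 counts, 1 with the replicate block, and 0 (without TNF-α replicate 2) to 2 when each library was left out. The median log2 fold change over the tested clustered genes ran from 0.05 to 0.57 without single libraries, and turned to -0.42 with no filter and, with H1f1 to H1f6 and H2bu1 counted as clustered, to -0.45. The summed fold of the clustered genes was 0.580 under that grouping, and 0.977 to 1.23 without single libraries. With no filter 1 variant gene, H1f8, was higher, and 59.9% of all genes in that fit were called. With an absolute log2 fold change over 1, 5 variant genes were lower (8 to 9 without single libraries, at any fold). At that size, 9 of the 33 tested mRNA processing genes and 24 of the 45 tested rows of the chaperone list were called. Over all genes tested, 27.8% were lower and 19.5% higher at that size. Hist1h3b ran from -0.24 to 0.30 without single libraries, with 0.30 without TNF-α replicate 3 and 0.22 without TNF-α+EMO replicate 3. Apart from the grouping, the causes were not tested. Library totals moved the median of all genes from -0.01 to -0.12.

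The replicate numbers gave no sign of pairing, since the deviations of same-numbered libraries from their group means correlated at 0.00948, -0.00666 and 0.0802. For libraries of different numbers the correlations ran from -0.0851 to 0.0797. With 3 libraries a group, such values cannot exclude a shared culture or batch. With the replicate block, 8 variant genes were lower, with a median of -1.05, and 2 clustered genes were higher. At 16813322 to 17794455 counts a library, members near 10 counts gave SEs of 0.32 to 0.61, against 0.07 to 0.18 for the called variants.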
